A study of Mus musculus with 6 samples.

Results

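Cluster 3 is one of the groups of hematopoietic stem and progenitor cells (HSPCs) in the cell table that the authors deposited with their single-cell RNA counts. Its members were taken as every cell to which that table gives cluster number 3, which is 1445 of the 16822 cells in the table, or 8.59%. Of these, 500, 110 and 392 came from PBS replicates 1, 2 and 3, and 55 and 388 from AML replicates 1 and 3. The authors' class column places 1176 of the 1445 cells (81.4%) in MPP2, a class of multipotent progenitor, and the analysis asked which genes mark the cluster, where its cells stand in the cell cycle, and how it differed between healthy and leukemia-bearing hosts.

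The hosts were C57BL/6J mice carrying the CD45.1 allele, 8 to 12 weeks old, that had received either PBS or 1000000 C1498 cells, and marrow was taken on day 21. C1498 is a mouse acute myeloid leukemia (AML) line carrying CD45.2, so that host cells can be told from leukemia cells by this surface antigen, and the hosts of both groups received no conditioning before injection. Marrow cells depleted of mature lineages were sorted as Lin- cKit+ Sca1+, the gate that holds stem cells and multipotent progenitors, and captured as polyA RNA with 10x Chromium V3 chemistry. There were 3 PBS and 3 AML libraries, and the labels do not say whether each came from 1 mouse, so that the p-values below measure the spread between these libraries.

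Multipotent progenitors descend from hematopoietic stem cells (HSCs) and are divided by surface markers into MPP2, which leans toward megakaryocytes and red cells, MPP3, which leans toward granulocytes and monocytes, and MPP4, which leans toward lymphocytes. Most HSCs rest outside the cell cycle, whereas progenitors divide often. A dividing cell copies its DNA in S phase, when it also makes the histones that package the new DNA, and then prepares for mitosis in G2 and M phase, when cyclin B and its partners accumulate. Genes of mitosis are often held under the control of CCAAT boxes close to the gene start, and genes induced by interferon under that of the interferon-stimulated response element, a pair of GAAA repeats.

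These promoters are shown because they carry one or the other element and belong to genes on which the results below turn. Pclaf, Spc25 and Rrm2 were among the 20 genes that led cluster 3, and Isg15 was among the genes that differed between AML and PBS hosts in it. Each line holds the 120 bases that end at the base before the gene start in RefSeq on GRCm38.p6, with capitals on every match to CCAAT (either strand) in the first 3 and to GAAA, any 2 bases, GAAA (either strand, overlapping matches joined) in Isg15. Pclaf lies at chr9:65890203-65890322 on the plus strand, Spc25 at chr2:69206214-69206333 on the minus strand, Rrm2 at chr12:24708134-24708253 on the plus strand and Isg15 at chr4:156200819-156200938 on the minus strand.
Pclaf: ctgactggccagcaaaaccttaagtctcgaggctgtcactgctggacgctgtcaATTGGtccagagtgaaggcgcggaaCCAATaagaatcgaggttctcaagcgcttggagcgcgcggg
Spc25: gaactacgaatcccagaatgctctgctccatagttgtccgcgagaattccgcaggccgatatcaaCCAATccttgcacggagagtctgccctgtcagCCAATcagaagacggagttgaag
Rrm2: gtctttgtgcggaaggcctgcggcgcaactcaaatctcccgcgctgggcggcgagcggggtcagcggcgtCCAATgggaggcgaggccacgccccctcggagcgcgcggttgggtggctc
Isg15: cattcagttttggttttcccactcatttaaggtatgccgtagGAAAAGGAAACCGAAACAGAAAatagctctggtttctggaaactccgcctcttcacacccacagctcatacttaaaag

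The 250 bases before the gene start were searched for these elements and for TTTGAA, the core of the cell cycle homology element, on both strands. Of the 20 leading genes 8 had a promoter in the RefSeq table, and CCAAT stood in 5 of them (Fbxo5, Pclaf, Spc25, Cdca3 and Rrm2), against 33.8% of all 32851 promoters of the same length, TTTGAA in 1 (Kif15), against 15.99%, and the interferon-stimulated response element in 1 (Cdca3), against 2.98%. Of the 16 genes that differed between AML and PBS hosts 9 had a promoter in the table, and the interferon-stimulated response element stood in 2 (Ncf1 and Isg15), against 2.98% of all promoters, while CCAAT stood in 3 (Ptn, Irf8 and Atp8b4) and TTTGAA in 1 (Ly86). These matches describe the letters and were not tested as binding sites.

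AML replicate 2 holds 17055 barcodes with 7089569 unique molecular identifiers (UMIs, which count captured RNA molecules) but none of its cells appear in the authors' table, so that 5 libraries carry all results. The UMIs of cluster 3 came to 3586059, 1868090 and 2961673 in PBS replicates 1 to 3, to 166152 in AML replicate 1 and to 3797279 in AML replicate 3. AML replicate 1 stood apart: the correlation of its cluster 3 profile with the other libraries was 0.81 to 0.84, against 0.955 to 0.977 among the others. Levels are given as CPM, the UMIs of a gene scaled to a library total of 1000000. Any pair of libraries shared at most 1 cell barcode within cluster 3. Values without this library are given beside the results that it moved most.

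The share of cluster 3 varied among libraries and overlapped between PBS and AML. It took 7.31% (exact 95% binomial interval 6.71 to 7.95), 11.8% (9.78 to 14.0) and 8.91% (8.09 to 9.79) of the cells of the PBS replicates, and 7.94% (6.03 to 10.2) and 9.80% (8.89 to 10.8) of AML replicates 1 and 3. Both AML shares lay inside the PBS range. The means were 9.33 ± 2.26% (SD, n = 3) and 8.87 ± 1.32% (n = 2), and an exact two-sided permutation test gave p = 0.9, where the smallest p that 3 against 2 libraries allow is 0.1. Intervals cover counting error only.

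Nearly all cells of cluster 3 were called as cycling. The authors' phase calls, which compare scores over S and G2M gene lists, placed 573 cells (39.7%) in S, 838 (58.0%) in G2M and 34 (2.35%) in G1. G2M took 56%, 59.1% and 58.4% of the cluster in the PBS replicates and 54.5% and 60.3% in AML replicates 1 and 3, while in the remaining cells of the same libraries it took 16.4%, 12.9%, 16.1%, 52.2% and 20.2%. The cluster thus stood clear of the other cells in 4 libraries, and in AML replicate 1, where most cells outside the cluster were also called as cycling, it did not: there the median S score was 0.00536 in the cluster and 0.00343 outside it, and the median G2M score 0.0964 and 0.0780.

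Cells called G1 were few in every library. They took 2% (10 cells), 0% (0 of 110 cells, 95% interval 0 to 3.30, with 2.73% the share at a floor of 3 cells) and 1.79% (7 cells) in the PBS replicates, and 12.7% (7 of 55 cells, 95% interval 5.27 to 24.5) and 2.58% (10 cells) in AML replicates 1 and 3. Both AML shares lay above all 3 PBS shares, with means of 1.26 ± 1.10% and 7.65 ± 7.18% (exact permutation p = 0.1, the smallest possible, adjusted p = 0.15 over 3 phases), and without AML replicate 1 the difference of 6.39 percentage points became 1.32. The S share was 40.9 ± 1.10% in PBS and 34.9 ± 3.10% in AML (exact permutation p = 0.1, adjusted p = 0.15), a difference of -5.98 points that became -3.79 without AML replicate 1, and the G2M share 57.8 ± 1.63% and 57.4 ± 4.08% (exact permutation p = 0.9). No phase share passed the threshold, which this design cannot reach.

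Cells of cluster 3 carried more RNA molecules than the other cells. Their median UMI count was 6941, 16442.5 and 7336.5 in the PBS replicates and 2548 and 9382.5 in AML replicates 1 and 3, which is 1.81, 1.83, 1.76, 1.07 and 1.69 times that of the other cells of the same library. AML replicate 1 was again the exception. Over the whole table the cluster's median of 7663 stood below those of cluster 4 (8458) and cluster 6 (8667), and above those of the remaining clusters. The library medians averaged 10240.0 ± 5375 in PBS and 5965 ± 4833 in AML (exact permutation p = 0.6), a difference of -4275 UMIs that became -857.5 without AML replicate 1.

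Part of this excess went with phase, except in AML replicate 1. Among cells called G2M, the median was 7099.5, 16450, 7221, 2576.5 and 9415 UMIs in cluster 3 (PBS replicates 1 to 3, then AML replicates 1 and 3) and 6528, 16016, 7140, 2373.5 and 8369.5 in clusters 0 to 2, the 3 largest clusters with 13820 cells together. Among cells called S the gap was wider, at 6801, 16435, 7436 and 9414.5 UMIs in cluster 3 against 5082, 12512.5, 5447 and 6928.5 in clusters 0 to 2, in the 4 libraries with at least 20 such cells. The cluster's higher gene count also went with depth: with each cell thinned to 2000 UMIs the median was 954 to 1061 genes in cluster 3 and 970 to 1083 in the other cells, and in each library the cluster's was the lower. Barcodes among the top 5% of doublet scores made up 5.45% to 9.79% of cluster 3 and 2.66% to 4.34% of the other cells, and their part in the UMI excess was not tested.

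**Figure D1:**
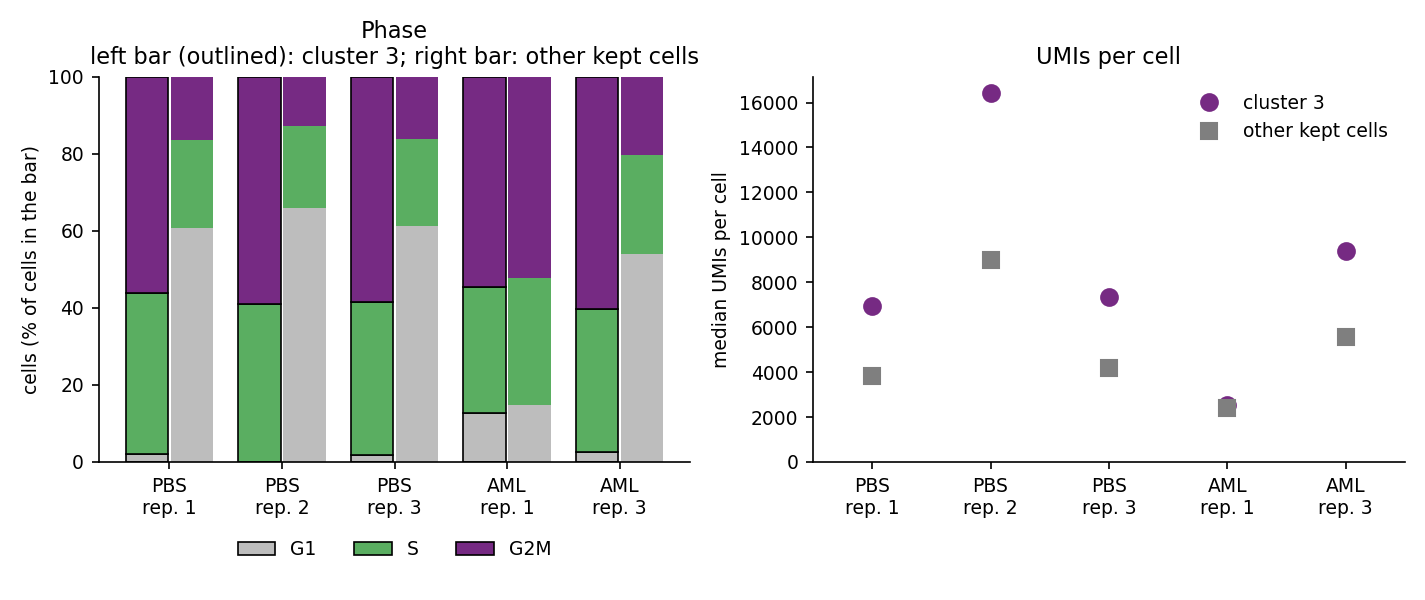
Shares of cells called G1, S and G2M (percent) and median UMIs per cell in cluster 3 and in the other cells, for each of the 5 libraries. G1 cells are at most 12.7% of cluster 3 in any library, and its median UMI count exceeds that of the other cells by 1.69 to 1.83 times in all libraries but AML replicate 1 (1.07).

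Histone genes were the most frequent among the genes that led cluster 3. Leading genes are those with a mean of at least 50 CPM in the cluster, higher in it than in the other cells of the same library in all 5 libraries, ranked by the median log2 ratio of CPM + 1; since cells were clustered on such genes, these values describe the cluster and were not tested. Of 2650 genes with that mean, 829 (31.3%) were higher and 490 (18.5%) lower in every library, and 48 of the higher ones had a median log2 ratio of at least 1. The 20 leading genes held 8 histone genes, while 1 stood in the S list and 1 in the G2M list used to score phase.

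Hist1h2af, which encodes a histone H2A, led the list. It stood at 36.3, 62.6 and 52.7 CPM in cluster 3 of the PBS replicates and 48.1 and 52.4 CPM in AML replicates 1 and 3, and at 7.22 to 13.5 CPM in the other cells, a median log2 ratio of 2.18 (1.76 to 2.43). Every library showed the gap, AML replicate 1 included. Hist1h1b, a linker histone, stood at 682, 523, 666, 301 and 666 CPM in the same order against 162, 70.6, 135, 135 and 183 CPM outside the cluster (median log2 ratio 2.07, 1.15 to 2.87), with the smallest gap in AML replicate 1. Hist1h1a (2.03), Hist1h2an (2.02), Hist1h2ap (2.01), Hist2h2ac (1.98), Hist1h2ae (1.84) and Hist1h2bj (1.82) followed. Members of these histone families are near-identical in sequence, so that how reads were split among them is uncertain, and most replication-dependent histone RNAs carry no poly(A) tail, which limits how far a polyA capture measures them.

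The other leading genes included genes of DNA synthesis, sister chromatid cohesion and the kinetochore. Tk1, thymidine kinase, which salvages thymidine for DNA synthesis, stood at 395, 297, 303, 193 and 284 CPM in cluster 3 and 93.9, 70.4, 65.6, 70.8 and 101 CPM outside it (2.06, 1.43 to 2.19). Pclaf, the PCNA-associated factor that acts at replication forks, stood at 1004, 540, 1013, 1216 and 1010 CPM against 274, 162, 274, 777 and 420 CPM (1.73, 0.65 to 1.88). The level of Pclaf in the cluster was highest in AML replicate 1, yet its ratio was lowest there, because the other cells of that library also held much of it.

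Esco2, which acetylates cohesin in S phase, had a median log2 ratio of 2.05 and Rrm2, a subunit of ribonucleotide reductase, one of 1.53 (0.26 to 1.89). Pbk, a kinase of mitotic cells, stood at 153, 180, 133, 156 and 121 CPM against 36.9, 41.4, 26.1, 49.5 and 36.6 CPM (2.02). Spc25 (1.72) and Spc24 (1.66), subunits of the NDC80 kinetochore complex, Ska1 (1.55), a kinetochore protein, and Kif15 (1.64), a spindle motor, stood beside Fbxo5 (1.82, 0.31 to 2.02), the inhibitor of the anaphase-promoting complex before mitosis, Neil3 (1.64), a DNA glycosylase, and Cdca3 (1.65). AML replicate 1 gave the lowest ratio for all leading genes but Hist2h2ac.

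**Figure D2:**
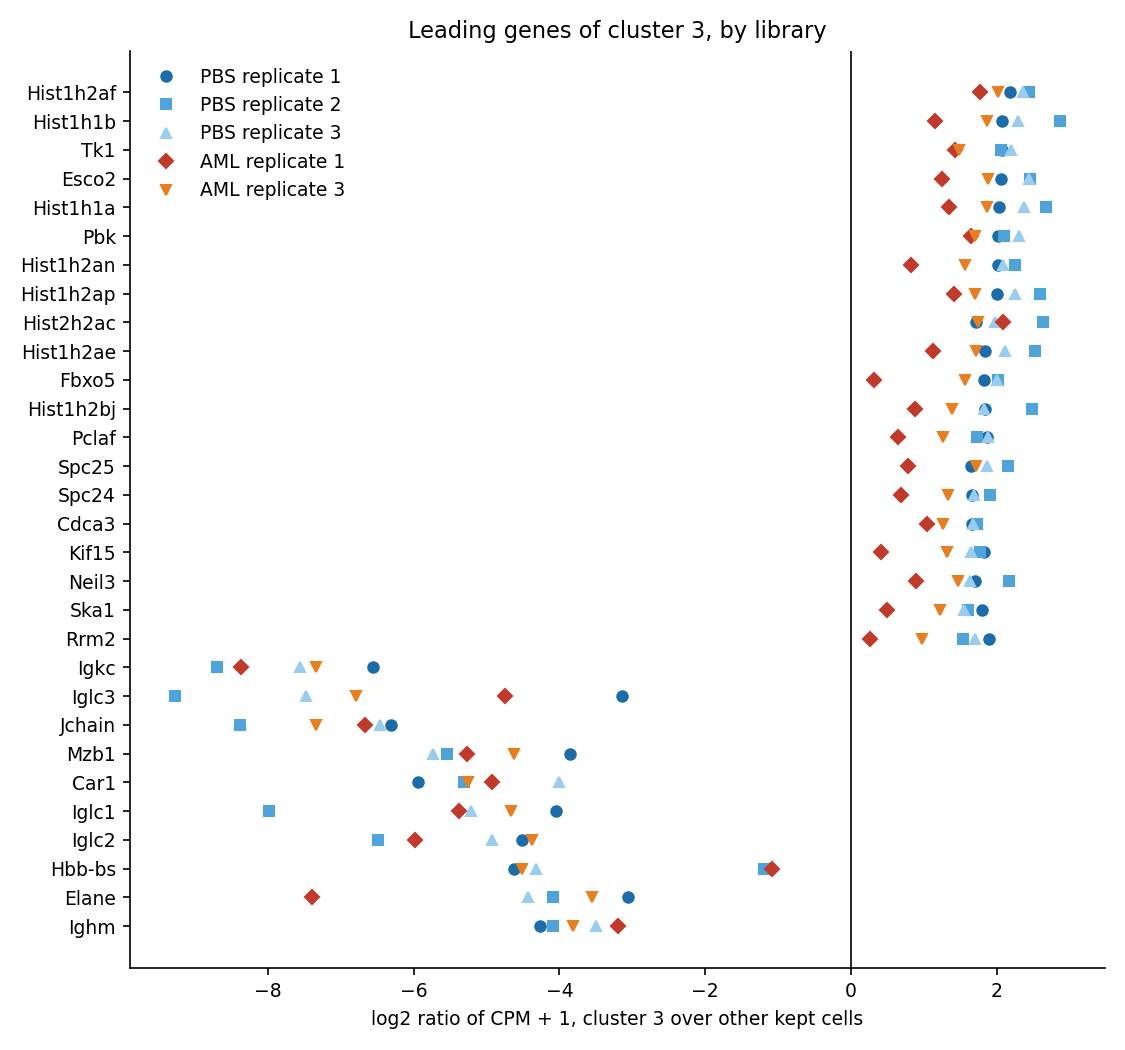
Log2 ratio of CPM + 1 in cluster 3 to that in the other cells of the same library for the 20 highest and 10 lowest leading genes, with 1 point for each of 5 libraries. The higher genes have medians of 1.53 to 2.18, and the lower ones reach -7.55 for Igkc.

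Histone genes also led when phase was held. Compared only with other cells of the same authors' phase, the 10 highest genes by the same rule were Hist1h2af (median log2 ratio 1.80), Hist1h1a (1.76), Esco2 (1.49), Hist2h2ac (1.45), Hist1h1b (1.32), Pbk (1.18), Hist1h2ap (1.17), Tk1 (1.13), Hist1h2ae (1.09) and Pclaf (1.00). All 10 were also among the 20 above. Of the 20 leading genes, 13 stayed among the 20 highest under the same-phase comparison.

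A share of cells with a UMI gave the same picture at equal depth. With each cell thinned to 2000 UMIs, Hist1h1b had at least 1 UMI in 49.1% to 72.4% of cluster 3 cells across the libraries, in 7.52% to 20.7% of the other cells, in 1.84% to 10.6% of the other clusters' G1 cells and in 0% to 8.47% of cluster 6. G1 cells and cluster 6, in which 91.5% of cells were called G1, give the level at which free RNA and non-dividing cells show this gene, and every library of cluster 3 lay above it. Top2a, the topoisomerase that untangles replicated DNA, had a UMI in 57.3% to 78.2% of thinned cluster 3 cells and in 16.4% to 66.9% of the others. Without thinning, Hist1h1b had a UMI in 56.4% to 98.2% of cluster 3 cells and 19.5% to 37.7% of the others.

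The 10 lowest genes in cluster 3 against the rest were 7 genes of antibody production and Car1, Hbb-bs and Elane. Igkc, the antibody kappa chain, stood at 88.1, 28.9, 64.8, 24.1 and 72.4 CPM in cluster 3 and at 8355, 12410, 12367, 8259 and 11892 CPM in the other cells (median log2 ratio -7.55). The other cells include the 177 cells of cluster 6, and how much of the antibody RNA lay in them was not tested. Iglc3 (-6.78), Jchain (-6.67), Mzb1 (-5.27), Iglc1 (-5.22), Iglc2 (-4.93) and Ighm (-3.81), all genes of antibody production, were also among the 10 lowest. Car1, the carbonic anhydrase of red cells, stood at 0.558, 0, 7.77, 0 and 0.263 CPM against 94.8, 38.8, 140, 29.2 and 47.3 CPM (-5.26). Elane, neutrophil elastase, stood at 4.46, 1.07, 5.4, 0 and 14 CPM against 44.6, 34.1, 137, 166 and 175 CPM (-4.08). Hbb-bs, a beta globin whose reads can be shared with its near copy Hbb-bt, completed the 10 (-4.32, -4.62 to -1.09). The list of 10 B cell markers, Jchain among them, summed to 36.1 to 85.1 CPM in cluster 3 and 754 to 1651 CPM in the other cells.

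Within phase, Car1 (-5.85), Igkc (-4.56), Elane (-4.37), Pf4 (-3.40), Mzb1 (-1.43), Hbb-bs (-1.41), Cd9 (-1.04), Ms4a6c (-1.01) and Pdcd4 (-0.84) were among the 10 lowest. Pf4 encodes platelet factor 4. Most antibody genes lost much of their gap in this comparison, and not in the same direction everywhere: Iglc3 had a median of -0.89 (up to 0.32), Ighm of -0.98 (up to 0.24), Iglc1 of -1.51 (up to 0.45), Iglc2 of -2.18 (up to 0.13) and Jchain of -3.04 (up to 0.88). The comparison took S and G2M cells only, and so left out most of cluster 6, in which 91.5% of cells were called G1. Whether phase or the loss of those cells narrowed the gap was not tested.

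The genes that define MPP2 were not raised in cluster 3. None of the 13 MPP2 markers was higher in the cluster in all 5 libraries and 11 were lower in all, against 5.33% and 20.9% of all genes with a UMI. Their summed level was 401, 289, 313, 187 and 338 CPM in cluster 3 and 530, 432, 481, 354 and 482 CPM in the other cells, so that the cluster was the lower in each library, and Cavin2 and Rhag were at 0. Pf4 stood at 13.7 ± 4.26 CPM in the cluster (SD, n = 5 libraries) and 109 ± 17.1 outside it (median log2 ratio -3.10), Gata2, a regulator of stem cells and megakaryocyte progenitors, at 9.82 against 20.3 CPM, Gata1, the regulator of red cell and megakaryocyte genes, at 1.85 against 5.76 CPM and Itga2b (CD41) at 5.43 against 9.87 CPM. Slamf1, which encodes the CD150 antigen by which MPP2 cells are sorted, stood at 1.24 against 3.16 CPM, and Cd48, the antigen that separates MPP2 from HSCs, at 180 ± 49.1 against 154 ± 39.5 CPM (0.27). The authors' own MPP2 module score ran the other way, with a median of 0.0449, 0.0660, 0.0470, 0.0223 and 0.0373 in cluster 3 against -0.0382, -0.0427, -0.0291, 0.0131 and -0.0316 in the other cells. The class label thus goes with the score and against these markers, and the cells are called cluster 3 here.

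No other lineage list stood out as raised. Of 14 HSC markers 11 were lower in all libraries and none higher (939 to 1126 CPM summed against 1156 to 2092), of 11 MPP3 markers 7 were lower (1272 to 2359 against 1605 to 3593 CPM), and of 12 MPP4 markers 5 were lower (881 to 1463 against 2334 to 3276 CPM). Most of the MPP4 gap lay in Ighm, 1 of the 12, which averaged 125 CPM in cluster 3 and 1738 CPM in the other cells. Of 21 megakaryocyte and platelet genes 15 were lower (84.3 to 156 against 294 to 363 CPM) and of 23 erythroid genes 7 (391 to 903 against 506 to 1618 CPM), where 20.9% of all genes with a UMI were lower in all libraries. Other cell types were near the level of the rest or below it: 10 neutrophil genes summed to 0 to 4.73 CPM, 10 macrophage genes to 66.2 to 130 CPM against 108 to 219 CPM outside the cluster, 10 mast cell genes to 6.02 to 23.1 CPM, 9 stromal and endothelial genes to 46.6 to 108 CPM against 80.0 to 128 CPM, and 11 T and NK cell genes to 176 to 237 CPM against 177 to 213 CPM.

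Lists of cell division stood above the other cells in summed level, with AML replicate 1 close to level for the S list. Of 19 histone genes 16 were higher in every library (10755 to 15463 against 8102 to 9745 CPM summed), of 54 G2M genes 20 (7186 to 9036 against 4370 to 6740 CPM) and of 43 S genes 15 (3485 to 4878 against 2461 to 3477 CPM), against 5.33% of all genes with a UMI and 31.3% of those with a mean of at least 50 CPM. The S and G2M shares are near the latter. In AML replicate 1 the S sum was 3485 CPM in the cluster and 3477 CPM outside it. Top2a (median log2 ratio 1.31), Mki67, the proliferation marker (1.18), and Cdk1, the kinase that drives mitosis (1.09), were examples. Of 20 nuclear genes of the respiratory chain 14 were higher in all libraries, among them Ndufa4 (0.47), and of 27 genes of ribosome biogenesis 12, both larger shares than those of the S and G2M lists, among them Npm1 (0.33). Of 13 mitochondrially encoded genes 6 were lower and none higher.

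Interferon-stimulated and early response genes were lower in cluster 3 than in the other cells. Of 34 interferon-stimulated genes found, 23 were lower in all 5 libraries and none higher, against 20.9% and 5.33% of all genes with a UMI, and Ifi27l2a stood at 75.2 ± 55.4 against 133 ± 74.7 CPM (-1.06). Of 15 immediate early genes 12 were lower, among them Jund (-0.92) and Ier2 (-0.75). Of 18 G1 cyclins and cell cycle inhibitors 3 were higher and 7 lower, with Cdk4, a kinase of G1 progression, at 0.55, its relative Cdk6 at -0.36, and the inhibitor Cdkn1b (p27) at -0.59. Of 34 genes of interferon gamma and antigen presentation 4 were higher and 12 lower, with Psmb8, an immunoproteasome subunit, at 0.21 and B2m at -0.15. The shares lower in all libraries in these last lists stand beside the same 20.9%.

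**Figure D3:**
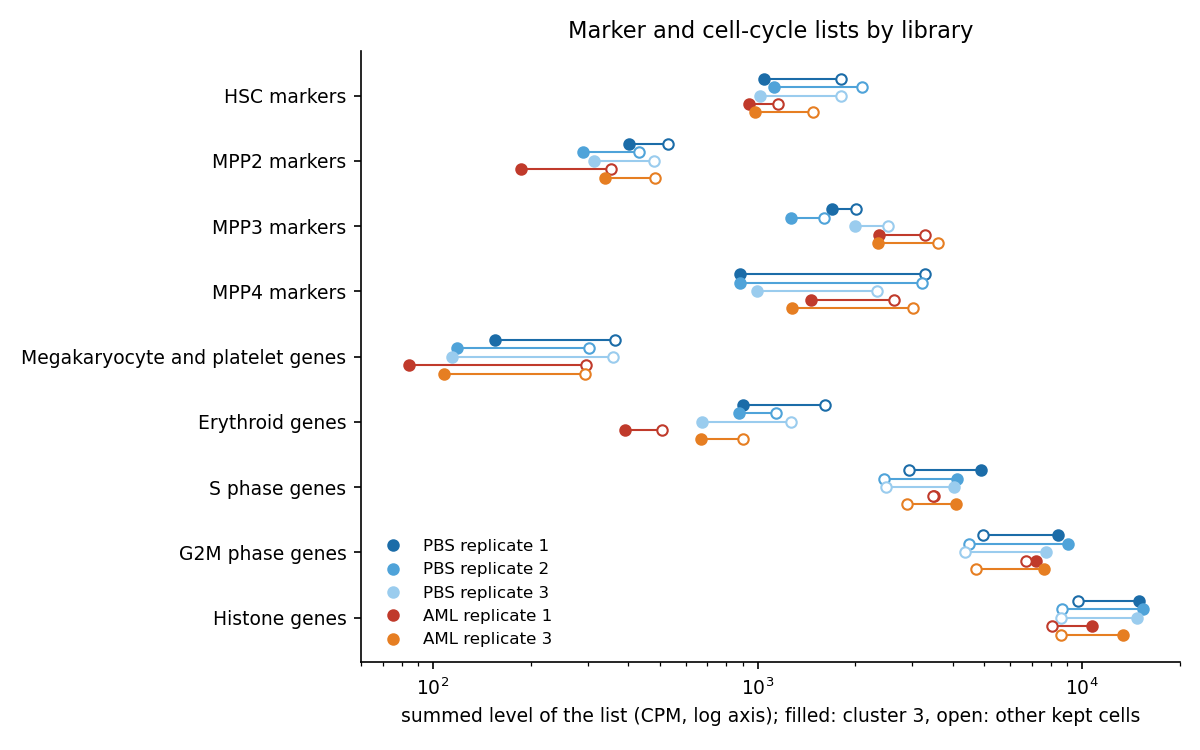
Summed CPM of marker and process lists in cluster 3 and in the other cells of the same library, 1 point for each of 5 libraries on a log axis, filled for cluster 3 and open for the other cells. The MPP2 list is lower in cluster 3 in each library, and the histone list is higher in each.

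In clusters 0 to 2 the share of cells in the authors' MPP2 class went with the phase call. Among cells of clusters 0 to 2, MPP2 took 2.95% to 21.3% of those called G1, 28.4% to 41.5% of those in S and 61.2% to 83.1% of those in G2M across the 5 libraries. In cluster 3 it took 66.0% to 84.6% of S cells (4 libraries) and 60% to 95.4% of G2M cells (5 libraries). Within libraries the MPP2 share of G2M cells was 85.4%, 95.4%, 90.4%, 60% and 83.8% inside cluster 3 and 72.2%, 83.1%, 81.2%, 61.2% and 61.9% in clusters 0 to 2, higher inside in all libraries but AML replicate 1. The ranges of the S shares did not overlap. Other clusters did not keep to the phase call: cluster 5 was 53.4% G2M and 26.3% MPP2, and cluster 7 was 36.3% G2M and 86.3% MPP2. The class with the highest module score led the next by under 0.05 in 581 of the 1445 cells (40.2%).

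Cells of the other classes inside cluster 3 held more of the lymphoid or myeloid genes. The 178 cells of class MPP4 (12.3%) held Flt3, the receptor of early lymphoid progenitors, at 314 to 421 CPM in the 3 libraries with at least 20 such cells, against 114 to 192 CPM in the 1176 MPP2-class cells of 5 libraries. Dntt, the enzyme that adds bases at antigen receptor junctions, stood at 371 to 591 against 95.7 to 221 CPM. The 66 cells of class MPP3 (4.57%) held Mpo, myeloperoxidase, at 225 to 456 CPM in 2 libraries against 74.4 to 184 CPM, and Ctsg, cathepsin G, at 257 to 398 against 40.6 to 121 CPM. Class HSC took the remaining 25 cells (1.73%). Classes were made from module scores over such genes, so that these levels describe the classes.

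The MPP2 share of the cluster was lower in both AML libraries, in a design that cannot reach the threshold. MPP2 took 81.2%, 90.9% and 87.2% of the cluster in the PBS replicates and 65.5% (95% interval 51.4 to 77.8) and 75.3% (70.7 to 79.5) in AML replicates 1 and 3, with no overlap between the groups. The means were 86.5 ± 4.90% and 70.4 ± 6.93% (exact permutation p = 0.1, the smallest possible, adjusted p = 0.133 over 4 classes), and without AML replicate 1 the difference of -16.1 points became -11.2. MPP4 took 10.1 ± 2.04% in PBS and 19.4 ± 5.96% in AML, and MPP3 2.35% and 9.06% (each exact permutation p = 0.1, adjusted p = 0.133). The MPP4 difference went from 9.37 to 5.15 points and the MPP3 difference from 6.71 to 4.86 points without AML replicate 1.

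Inside cluster 3, cells called S and cells called G2M differed in the genes that time the cycle and shared the leading histone genes. Ube2c, which supplies ubiquitin for targets of the anaphase-promoting complex, went from 43.3 ± 2.04 CPM in S cells to 347 ± 38.9 CPM in G2M cells (4 libraries with at least 20 cells of each, median log2 ratio 2.96), with Cenpa, the centromeric histone (2.49), Ccnb1 (1.86) and Ccnb2 (1.69), the mitotic cyclins, and Plk1, a mitotic kinase (1.72). In the other direction Ccne2, a cyclin of S phase entry, went from 59.7 ± 7.11 to 13.3 ± 2.55 CPM (-2.16), with Cdc6, which loads the replicative helicase (-1.63), Rrm2 (-1.24), Pclaf (-1.01), Mcm6 (-0.94) and Pcna (-0.81). The leading histone genes had ratios between -0.21 (Hist1h2an) and 0.22 (Hist1h2af), and Tk1 one of -0.38. These ratios follow from the phase call, which reads several of the same genes, and describe it.

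Cells called G2M in cluster 3 were higher in many S genes and lower in many G2M genes than cells called G2M in clusters 0 to 2. The comparison took 280, 65, 229, 30 and 234 G2M cells of cluster 3 (PBS replicates 1 to 3, then AML replicates 1 and 3) and 869, 89, 533, 286 and 528 of clusters 0 to 2. Of 43 S genes 21 were higher in cluster 3 in all 5 libraries and 1 was lower, and of 54 G2M genes 1 was higher and 33 were lower, against 20.3% and 14.9% of 2650 genes. Cluster 5, where 53.4% of 339 cells were called G2M, gave 88, 46 and 30 such cells in PBS replicates 1 and 3 and AML replicate 3, and is set beside them.

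Tk1 stood at 372, 256, 268, 145 and 263 CPM in the G2M cells of cluster 3, at 129, 82.3, 79.6, 59.3 and 91.5 CPM in those of clusters 0 to 2 and at 3.05, 5.46 and 0 CPM in those of cluster 5 (median log2 ratio to clusters 0 to 2 of 1.52). Rrm2 stood at a mean of 89.8, 37.7 and 8.97 CPM in the 3 sets (1.43), Tyms, thymidylate synthase, at 252, 113 and 43.7 CPM (1.27), Pclaf at 692, 353 and 33.6 CPM (1.24) and Hist1h1b at 551, 273 and 56.2 CPM (1.05). The order was thus cluster 3, clusters 0 to 2, cluster 5 for these genes of DNA synthesis.

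Ube2c ran the other way against clusters 0 to 2, at 313, 399, 355, 374 and 322 CPM in cluster 3 and 1009.5, 1300.0, 952, 383 and 782 CPM in clusters 0 to 2 (-1.42), and AML replicate 1 showed almost no gap. Cdkn3, a phosphatase of mitotic cells (-2.07), Cenpa (-1.47, 216 against 584 CPM), Ccnb1 (-1.39, up to 0.27 in 1 library) and Ccnb2 (-1.22, 207 against 468 CPM) were lower likewise. Against cluster 5 the mitotic genes went both ways: Ccnb2 was at 868 CPM and Cenpa at 974 CPM there, while Ube2c was at 116, 70.9 and 105 CPM and Cdk1 at 49.0 against 289 CPM in cluster 3. The median log2 ratio to cluster 5 was 1.47 over the S genes and 0.19 over the G2M genes. The G2M list was not lower throughout, since Top2a (0.03), Cdk1 (-0.02) and Mki67 (-0.13, -0.49 to 0.70) had median log2 ratios close to 0.

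**Figure D4:**
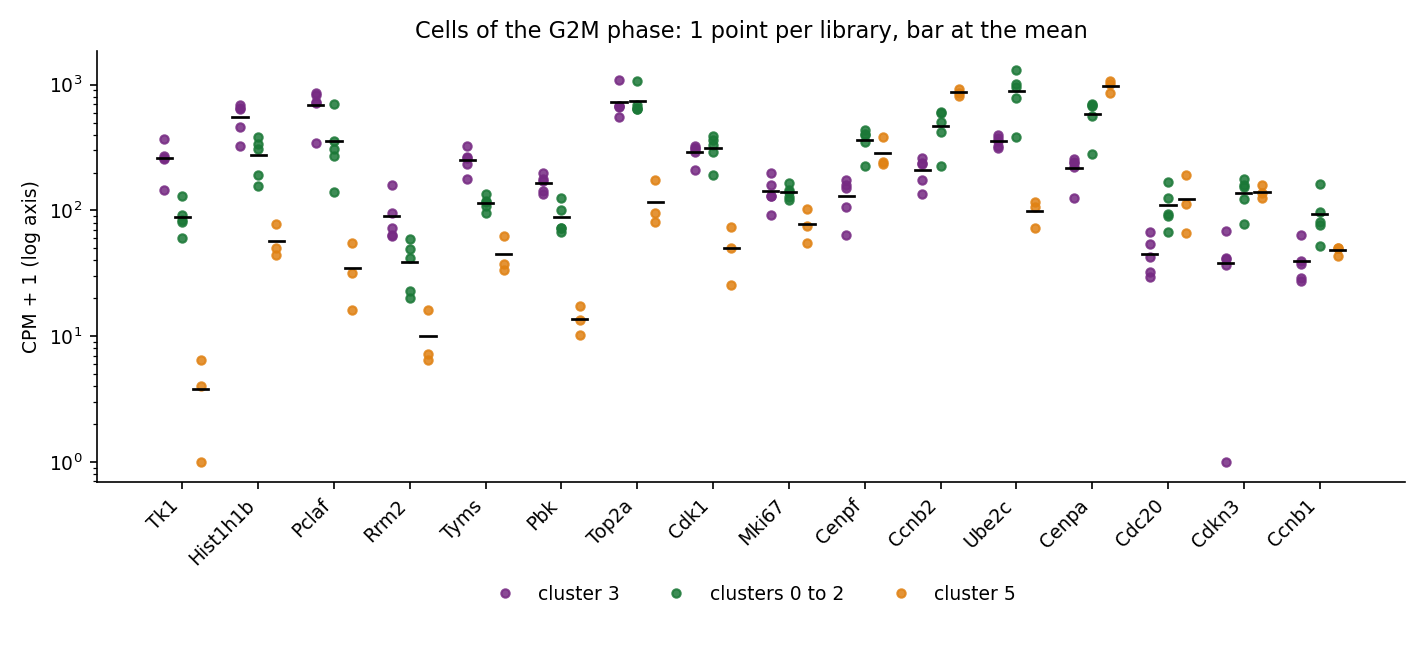
CPM + 1, on a log axis, of genes of DNA synthesis and of mitosis in cells called G2M in cluster 3, clusters 0 to 2 and cluster 5, with 1 point for each library and a bar at the mean. Tk1 is highest in cluster 3, and Ube2c is highest in clusters 0 to 2.

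Within cluster 3, a few genes, among them Ly86, Irf8, Isg15 and Ifi27l2a, were higher in cells from AML hosts. With edgeR's quasi-likelihood test on counts summed per library, 16 of 10225 genes passed an adjusted p of 0.05 (0.156%), 14 higher in AML (0.137%) and 2 lower (0.0196%). In all 16 the 2 AML libraries lay outside the range of the 3 PBS libraries, which held for 24.4% of all genes tested. Values below are CPM after TMM scaling, in PBS replicates 1, 2 and 3 and then AML replicates 1 and 3. Without AML replicate 1, of 55 cells, only Ly86 and Cd74 passed.

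Ly86, which encodes the partner of a toll-like receptor relative on myeloid and B cells, stood at 10.4, 9.04, 23.3, 153 and 81.4 CPM (log2 fold change 2.82 ± 0.33 SE, edgeR adjusted p = 4.25e-07). Both AML libraries were well above all 3 PBS libraries, and the gene passed under all 16 alternative settings, with adjusted p up to 0.0134. Irf8, a transcription factor of monocytes, dendritic cells and interferon response, stood at 13.5, 7.91, 18.4, 96.4 and 48.4 CPM (2.12 ± 0.33), and without AML replicate 1 its log2 fold change was 1.83 (edgeR adjusted p = 0.117). Ms4a6c, a membrane protein of myeloid cells, stood at 31.1, 22.6, 45.1, 125 and 96.3 CPM (1.65 ± 0.28, edgeR adjusted p = 0.000894), and Ncf1, a subunit of the phagocyte oxidase, at 5.45, 3.39, 9.02, 22.7 and 20.2 CPM (1.74 ± 0.40, edgeR adjusted p = 0.0457). In AML replicate 1, 3 counts make 17.0 CPM, so that its Ncf1 value rests on few UMIs. With thinned cells neither Ms4a6c nor Ncf1 passed, and with DESeq2 or limma-voom Ncf1 did not. Without AML replicate 1 neither passed, at log2 fold changes of 1.53 for Ms4a6c (edgeR adjusted p = 0.164) and 1.71 for Ncf1 (edgeR adjusted p = 0.419), with the AML group then 1 library.

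Among interferon-stimulated genes, Ifi27l2a stood at 21.0, 42.9, 48.1, 136 and 124 CPM (1.80 ± 0.29, edgeR adjusted p = 0.000266), and it did not pass without AML replicate 1 (1.76, adjusted p 0.131) or without AML replicate 3 (1.87, adjusted p 0.198). Isg15, a ubiquitin-like protein whose promoter is printed above, stood at 81.0, 75.2, 107, 346 and 217 CPM, with AML replicate 1 the highest, and without that library its log2 fold change was 1.304 (edgeR adjusted p = 0.261). Irf7, the regulator of type I interferon genes, stood at 37.9, 35.6, 36.8, 56.7 and 94.8 CPM (1.20 ± 0.27, edgeR adjusted p = 0.0443), and did not pass when either AML library was left out (1.36 with adjusted p 0.131 without replicate 1, and 0.59 with adjusted p 0.680 without replicate 3). Of the 30 interferon-stimulated genes tested 3 passed, all higher, 28 had a positive log2 fold change, and in 18 both AML libraries lay above all PBS libraries, against 11.2% of all genes tested. The median was 0.64, beside -0.03 over all genes tested, of which 4714 were positive. The list of interferon gamma and antigen presentation genes moved less. Of its 30 genes tested 2 passed, both higher, 18 were positive and 4 lay above all PBS libraries, beside the same 11.2% (median 0.11). Bst2, tetherin, stood at 196, 189, 241, 363 and 318 CPM (0.69, edgeR adjusted p = 0.963) and Xaf1 at 61.8, 65.5, 65.8, 90.7 and 98.7 CPM (0.59), neither past the test.

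Ccl5, a chemokine, had the largest fold of the 16, at 7.78, 2.83, 11.3, 363 and 23.04 CPM (4.06 ± 0.57, edgeR adjusted p = 2.37e-05). Of the 64 Ccl5 UMIs of AML replicate 1, 56 lay in 1 of 5 cells, and with the top cell of each library left out the values were 4.15, 0.565, 5.26, 45.4 and 18.3 CPM (2.61, edgeR adjusted p = 0.00146). Without AML replicate 1 the log2 fold change was 1.58 (edgeR adjusted p = 0.692). Cd74, the invariant chain of MHC class II, stood at 32.4, 36.2, 33.8, 62.4 and 184 CPM (2.09 ± 0.28, edgeR adjusted p = 7.22e-06), and without AML replicate 3 it was 0.85 (edgeR adjusted p = 0.564). AML replicate 3 held 704 Cd74 UMIs in 154 cells, 90 of them in 1 cell, and AML replicate 1 held 11 UMIs.

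The other 5 genes that rose had adjusted p between 0.0329 and 0.0476. Kdm6b, a demethylase of histone H3, stood at 12.97, 9.61, 6.39, 56.7 and 25.7 CPM (1.64). With the top cell of each library left out it did not pass (1.33, edgeR adjusted p = 0.317). Nor did Lgals1 (1.01, edgeR adjusted p = 0.174), Gm26917 (1.36, edgeR adjusted p = 0.0678) and Drc7 (1.73, edgeR adjusted p = 0.052). Drc7, a protein of cilia, had a log2 fold change of 1.71, Atp8b4, a lipid flippase, of 1.46, Gm26917 of 1.37 and Lgals1, galectin-1, of 1.15, with Lgals1 at 52.2, 55.9, 68.1, 125 and 132 CPM. Without AML replicate 1, and without AML replicate 3, none of these 5 passed.

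The 2 genes that fell were Cavin3, a coat protein of caveolae, at 35.3, 41.8, 32.3, 0 and 12.6 CPM (-1.67 ± 0.36, edgeR adjusted p = 0.0395), and Ptn, the growth factor pleiotrophin, at 14.3, 19.2, 10.2, 0 and 3.14 CPM (-2.26 ± 0.51, edgeR adjusted p = 0.0456). On this TMM scale a count of 0 in AML replicate 1 allows up to 17.0 CPM (3 counts), which for Ptn lies inside the PBS range. Leaving AML replicate 1 out gave Cavin3 a log2 fold change of -1.52 (edgeR adjusted p = 0.282) and Ptn one of -2.17 (edgeR adjusted p = 0.373).

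**Figure D5:**
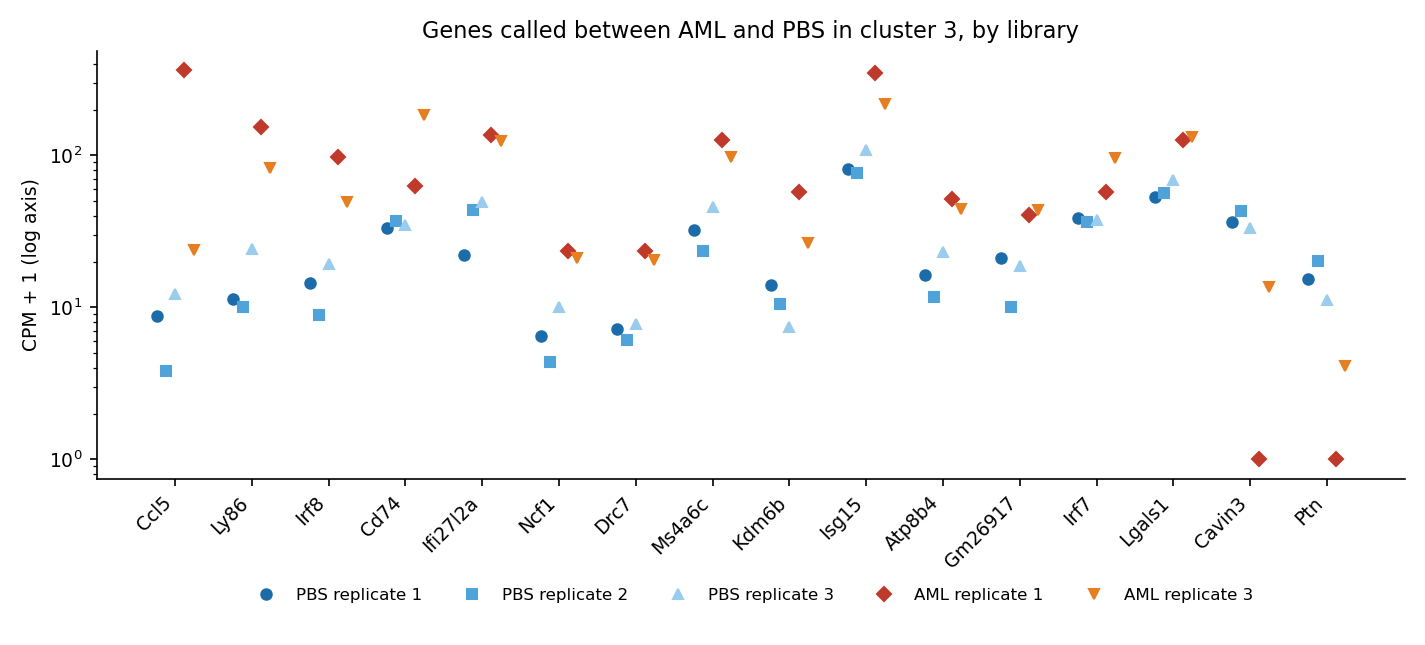
TMM-scaled CPM + 1, on a log axis, of the 16 genes that passed in cluster 3, 1 point for each PBS and AML library. For 14 genes both AML libraries lie above the 3 PBS libraries, and for Cavin3 and Ptn both lie below.

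The inflammatory genes that the study followed did not all pass. Besides Irf7, Irf8 and Isg15, Nfkb1, a subunit of NF-kB, stood at 52.9, 50.9, 54.5, 28.3 and 54.4 CPM (-0.10, edgeR adjusted p = 1.00) and changed sign without AML replicate 1 (0.044). Nfkb2, the partner subunit, stood at 2.59, 4.52, 2.63, 17.0 and 7.07 CPM (1.38 ± 0.56, edgeR adjusted p = 1.00). The 17.0 CPM of AML replicate 1 is 3 counts. Cxcl10 and Cxcl9, chemokines induced by interferon gamma, were too low to be tested: the PBS replicates held 1, 3 and 1 Cxcl10 UMIs and 1, 0 and 0 Cxcl9 UMIs, AML replicate 3 held 20 Cxcl10 UMIs in 17 cells of the cluster and 3 Cxcl9 UMIs in 2 cells, and AML replicate 1 held none of either. Of 16 NF-kB inflammatory genes tested none passed, 4 lay above all PBS libraries (11.2% of all genes did) and the median log2 fold change was 0.44.

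Among lineage lists, MPP2, megakaryocyte and erythroid genes had mostly negative log2 fold changes, with few genes past the test. The MPP4, lymphoid priming, MPP3 and granulocyte-monocyte lists had mostly positive ones, and the B cell, T and NK cell, mast cell and macrophage lists did not. Of 9 MPP2 markers tested 1 was positive, 5 lay below all PBS libraries (13.2% of all genes did) and the median log2 fold change was -0.65. Of 10 erythroid genes 6 lay below (median -0.41), of 8 megakaryocyte genes 3 (-0.45) and of 11 HSC markers 5 (-0.40). No gene of these 4 lists passed.

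All 11 MPP4 markers tested were positive, beside 4714 of 10225 genes in all, and 5 lay above all PBS libraries, beside 11.2% of all genes (median 0.67), and of 15 lymphoid priming genes 13 were positive and 5 lay above (0.39), none of them past the test. Of 9 MPP3 markers 7 were positive (0.50) and of 14 granulocyte-monocyte genes 10 (0.37), of which Ly86, Irf8 and Ms4a6c passed. Ctsg stood at 44.4, 70.1, 66.9, 79.4 and 126 CPM (0.91, edgeR adjusted p = 0.356). The larger shares of MPP4 and MPP3 classes in the AML libraries moved with these lists, and their part in the result was not tested. Within MPP2-class cells alone the MPP4 markers summed to 743, 818 and 932 CPM in the PBS replicates and 1474 and 1170 CPM in AML replicates 1 and 3, both above all PBS libraries. On MPP2-class cells alone 22 genes passed between AML and PBS, all 16 among them. Of 5 macrophage and monocyte markers tested 2 lay above and 2 below the PBS libraries (median -0.34). Among 3 B cell genes (-0.72) and 2 T and NK cell genes (-0.10) none was positive, and among 3 mast cell and basophil genes 1 was (-0.10).

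Genes of cell division did not pass in either direction. Of 19 histone genes 2 were positive and 6 lay below all PBS libraries, beside 13.2% of all genes tested (median -0.40), and Hist1h1b stood at 634, 552, 742, 283 and 662 CPM (-0.38, edgeR adjusted p = 1.00), low only in AML replicate 1. Of 43 S genes 10 lay below (-0.16), and of 54 G2M genes 10 lay below and 3 above (-0.15), beside 13.2% and 11.2% of all genes tested. Of 14 immediate early genes 1 was positive (-0.50). None of these genes passed.

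A few of these genes also passed in the main clusters. In clusters 0 to 2, 12 of 13927 genes passed (0.0862%). All 16 genes that passed in cluster 3 were tested there, and all 16 had a log2 fold change of the same sign. Ly86 (2.91, edgeR adjusted p = 0.00384), Irf8 (2.04, edgeR adjusted p = 0.0275) and Ms4a6c (1.60, edgeR adjusted p = 0.0271) were the 3 that passed in both. Cells of cluster 3 and of clusters 0 to 2 come from the same libraries, so that these are not independent of each other.

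A direct test found few genes whose AML difference was not the same in cluster 3 as in clusters 0 to 2. With library as a block and edgeR's test of the interaction, 9 of 11550 genes passed (0.0779%), 4 with a higher and 5 with a lower difference in cluster 3, and with limma-voom and library as a random effect none passed (290 genes at an unadjusted p under 0.05). Values here are CPM after TMM scaling over both sets. Cd74 stood at 35.7, 38.6, 37.3, 61.3 and 198 CPM in cluster 3 and 83.7, 118, 56.8, 37.9 and 197 CPM in clusters 0 to 2 (interaction 1.18 ± 0.17 on the log2 scale, edgeR adjusted p = 8.90e-06). The level in clusters 0 to 2 overlapped between the groups, while in cluster 3 it did not, and the call was lost without AML replicate 3 (1.86, edgeR adjusted p = 0.184) and with thinned cells. Pclaf stood at 1029, 609, 1244, 1126 and 1077 CPM in cluster 3 and 219, 154, 222, 726 and 277 CPM in clusters 0 to 2 (-0.81, edgeR adjusted p = 0.0197), where AML replicate 1 was the high library outside cluster 3, and without it the interaction was -0.30 (edgeR adjusted p = 0.997). It also failed to pass with S and G2M cells only or MPP2-class cells only on both sides.

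Ctsg stood at 48.9, 74.9, 73.9, 78.1 and 135 CPM in cluster 3 and 21.8, 15.4, 35.3, 116 and 102 CPM in clusters 0 to 2 (-1.02, edgeR adjusted p = 0.000129). In both sets the AML libraries lay above the PBS libraries, with the larger gap outside cluster 3, and the call was lost with thinned cells and with MPP2-class cells only. Without AML replicate 1 the count of genes was 3 and without AML replicate 3 it was 244.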

How the data were processed

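Single-cell RNA-seq was performed on Lin- cKit+ Sca1+ marrow cells of 3 PBS and 3 AML libraries. Per the file headers and the submitters' processing notes, the authors made the UMI counts with Cell Ranger 7.0.1 on GRCm38 (mm10), and the cell table with Seurat 4.3.0 under R 4.2.2. That table, as deposited, gives for each cell the total count, the percent of UMIs from mitochondrial and ribosomal genes, the S, G2M and class module scores, phase, class and cluster number. Cell filters, doublet treatment and integration settings, not given in the sources used here, decide which barcodes the table holds. A further 11 columns of the table were not used.

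Cells were joined to the deposited counts by library and barcode, and cluster 3 was taken as numbered by the authors. Counts were summed per library over cluster 3, over all other cells of the table and over clusters 0 to 2, and only sums over at least 20 cells were used. AML was compared with PBS on these sums with edgeR 4.0.16 (R 4.3.3; quasi-likelihood F test, TMM scaling, filterByExpr, Benjamini-Hochberg adjustment over all genes tested), and the difference between cluster 3 and clusters 0 to 2 was tested as an interaction with library as a block. Shares and median UMI counts were compared with exact two-sided permutation tests over libraries (scipy 1.17.1, python 3.11.15). The code was tested on simulated data. Leading genes were the 20 highest and 10 lowest, and within phase the 10 on each side, by the median log2 ratio of CPM with a pseudocount of 1, at a mean of at least 50 CPM and with the same sign in every library. Genes named between AML and PBS were all that passed, the inflammatory genes followed by the study, the 5 interaction genes of lowest p, and the most abundant members of the gene lists. Further genes of the lists were named as examples after their values were seen. The members and the 28 lists were chosen with earlier results of these data known. The doublet caller (scrublet in scanpy 1.11.5) marked 0, 5, 1, 7 and 0 cells in the 5 libraries and so did not work, and only its scores were used, in an alternative without the top 5%.

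Alternatives were DESeq2 1.42.0, limma 3.58.1 (voom), scaling by library size, no filter, a replicate block, each library left out, cells thinned to 2000 UMIs, MPP2-class cells only, S and G2M cells only, and equal numbers of cells. Depth per library bounds the precision of each value. Promoters were taken from RefSeq on GRCm38.p6.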

Additional observations from a re-analysis of the deposited data

Results flagged for a closer look

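For 9 genes the difference between AML and PBS in cluster 3 was not that of clusters 0 to 2 by edgeR's interaction test (11550 genes tested), and the values are log2 differences between the effects, cluster 3 minus clusters 0 to 2. The effect was larger in cluster 3 for Cd74 (1.18), Hbb-bt, a beta globin (1.16), Kdm6b (1.10) and H2-Aa, an MHC class II chain (0.87). The difference was negative for Ctsg (-1.02), Pclaf (-0.81), Gm32916 (-4.20), 1700034P13Rik (-1.47) and Hist1h2ap (-0.69). The last 3 had log2 fold changes of opposite sign in the separate fits, -3.29 in cluster 3 and 2.42 in clusters 0 to 2 for Gm32916, -0.46 and 2.22 for 1700034P13Rik, and -0.36 and 0.65 for Hist1h2ap, none past the test. The same held for Hbb-bt (0.76 and -0.67) and H2-Aa (1.16 and -0.042). Hbb-bt stood at 40.9, 38.1 and 43.6 CPM in cluster 3 of PBS replicates 1 to 3 and 16.7 and 82.8 CPM in AML replicates 1 and 3, so that the 2 AML libraries lay on opposite sides of the PBS libraries. In clusters 0 to 2 it stood at 36.0, 89.0, 55.7, 25.3 and 47.1 CPM in the same order. Without AML replicate 1 the calls of Pclaf (interaction -0.30), Hist1h2ap (-0.55), Gm32916 (-3.57), 1700034P13Rik (-1.03), H2-Aa (0.86) and Kdm6b (1.08) were lost. Without AML replicate 3 those of Cd74 (1.86), Kdm6b (1.29), H2-Aa (1.20) and Hbb-bt (-0.20) were lost. Each of these fits left 1 library in the AML group. The numbers of cells behind these sums are those of the report, with 55 cells of cluster 3 in AML replicate 1, and their part in these differences was not tested.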

How the results depend on the processing

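Between AML and PBS in cluster 3, where 16 genes passed, 7 passed with DESeq2, 6 with limma-voom, 26 with scaling by library size, 30 with no filter, 6 with cells thinned to 2000 UMIs, 7 with equal numbers of cells and 12 with the top cell of each called gene left out, the last chosen after seeing the data. Leaving out 1 library gave 2 to 17 genes: 2 without AML replicate 1, 17 without AML replicate 3 (4 of them among the 16), and 8 without PBS replicate 2 or 3. Over the 16 genes and all settings 148 values kept their side of the threshold, 103 lost it and none reversed. Nfkb1 (-0.10, never past the test) was 0.14 after thinning and -0.92 to 0.044 with 1 library left out. With the replicate number as a block 9 genes passed, 8 of them among the 16. The correlation of deviations was -0.0387 and -0.0416 for libraries of the same number and -0.00494 to 0.0416 for the others. With 2 AML libraries their deviations from the group mean are exact opposites. These correlations therefore cannot show or exclude a pairing by number. For the interaction, where 9 genes passed, the count was 0 with limma-voom and library as a random effect (290 genes at an unadjusted p under 0.05), 14 with scaling by library size, 26 with no filter, 49 against all other cells, 12 with thinned cells (all lower in cluster 3, 2 of them among the 9), 6 with MPP2-class cells only on both sides (2 among the 9) and 10 with S and G2M cells only on both sides (5 among the 9), the last chosen after seeing the data. It was 3 to 244 with 1 library left out: leaving out AML replicate 3 gave 244, AML replicate 1 gave 3 and PBS replicate 3 gave 4. The Hbb-bt interaction ran from -0.20 without AML replicate 3 to 1.53. Of the 20 leading genes 13 stayed against cells of the same phase, and 16 to 19 under the other settings. The difference in share of cells between AML and PBS (-0.47 percentage points) ran from -1.48 to 0.76 with 1 library left out, that of the G2M share from -3.29 to 2.47 (2.69 with phase called again after thinning) and that of the HSC share (0.02) from -1.14 to 1.18. The cause of these changes was not tested. A test on G1 cells alone was not run, since no library held more than 10. The 55 cells of AML replicate 1 limit what could be detected.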
